A study of Mus musculus with 8 samples.

Results

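Transcripts of 10 pattern-recognition and lipid-binding receptors were described in macrophages of mouse fat, comprising 5 scavenger receptors and 5 receptors of the CD300 family. The genes were taken by name: Msr1, Marco and Colec12 of scavenger class A, Scarb1 and Scarb2 of class B, and Cd300a, Cd300lf, Cd300c2, Cd300lb and Cd300ld. All 10 of the 41388 deposited genes that carry these symbols had enough counts to be tested, among 13933 genes tested in all. The cells came from the epididymal fat pad of 4 male MitoFat mice, a strain that reports mitochondria made by adipocytes, and all were fed normal chow. From each mouse, live cells positive for CD45, F4/80 and CD64 were sorted after collagenase type II digestion into an mtD2+ population, which held adipocyte mitochondria, and an mtD2- population, which did not. This gave 4 mtD2+ and 4 mtD2- libraries, paired by mouse, and every comparison below is mtD2+ over mtD2- within mice. Both populations therefore share strain, reporter, sex, diet and digestion. Neither the labels nor the design text state the age of the mice or how many cells each sort yielded.

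Scavenger receptors take up modified lipoproteins, microbes and dying cells, and macrophages are known to load themselves with lipid through them. Class A receptors are trimers with a collagen-like stalk, whereas class B receptors have a large loop held between a pair of membrane spans. CD300 receptors carry 1 immunoglobulin-like domain, and several bind lipids such as phosphatidylserine and ceramide. Some have a long tail with inhibitory tyrosine motifs that recruit phosphatases, and others have a short tail and signal through the adaptors DAP12 (Tyrobp) or FcRγ (Fcer1g). Most mouse CD300 genes lie side by side in 1 cluster.

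In the GRCm38 gene models, that cluster ran along chromosome 11 from Cd300a, at 114890041 to 114904654, to Cd300lf, at 115116214 to 115133992. Cd300a is on the plus strand and the others are on the minus strand. In order from Cd300a came Cd300lb, Cd300c, Cd300ld, Cd300c2, Cd300ld2, Cd300ld4, Cd300ld5, Cd300ld3, Cd300e and Cd300lf. The bases before the RefSeq (GRCm38.p6) gene start were looked at for 7 of the 10 receptors and for 5 other CD300 genes. Of these, 4 are printed because they belong to genes of the cluster of which 2 (the first 2) were called higher in mtD2+ cells and 2 were not called: Cd300c2 at chr11:115001881-115002130, Cd300ld3 at chr11:115048331-115048580, Cd300ld at chr11:114989887-114990136 and Cd300lb at chr11:114934372-114934621. All are 250 bases long, on the minus strand, read 5′ to 3′ and ending at the base before the RefSeq gene start. Capitals mark GGAAGT, or ACTTCC where the match is on the other strand, the core of the sites bound by PU.1 and other ETS factors.
Cd300c2: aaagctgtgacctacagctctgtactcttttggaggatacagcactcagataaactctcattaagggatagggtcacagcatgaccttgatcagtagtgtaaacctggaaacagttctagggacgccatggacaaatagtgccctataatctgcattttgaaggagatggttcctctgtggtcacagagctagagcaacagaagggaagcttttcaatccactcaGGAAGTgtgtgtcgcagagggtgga
Cd300ld3: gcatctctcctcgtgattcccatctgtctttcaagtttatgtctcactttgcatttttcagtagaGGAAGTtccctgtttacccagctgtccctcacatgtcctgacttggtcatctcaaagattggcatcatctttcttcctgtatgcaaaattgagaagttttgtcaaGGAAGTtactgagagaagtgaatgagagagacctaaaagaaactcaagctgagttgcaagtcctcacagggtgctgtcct
Cd300ld: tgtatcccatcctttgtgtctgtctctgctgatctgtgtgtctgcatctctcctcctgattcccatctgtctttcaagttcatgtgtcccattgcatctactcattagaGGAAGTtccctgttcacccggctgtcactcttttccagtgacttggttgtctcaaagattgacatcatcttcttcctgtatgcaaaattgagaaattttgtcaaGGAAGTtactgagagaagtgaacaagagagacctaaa
Cd300lb: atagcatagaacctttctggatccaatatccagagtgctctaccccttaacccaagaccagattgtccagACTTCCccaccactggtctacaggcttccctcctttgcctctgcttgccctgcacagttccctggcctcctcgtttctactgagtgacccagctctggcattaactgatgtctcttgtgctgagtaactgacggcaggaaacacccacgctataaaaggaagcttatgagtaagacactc

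Cd300c2 held 1 match, whose first base lay 25 bases before the start. Cd300ld3 held 2 matches, at 185 and 80 bases before the start, and Cd300ld held 2, at 141 and 37 bases. Cd300lb held 1 match on the other strand, at 180 bases, and Cd300lf held 1, at 14 bases. The counted genes Cd300ld3, Cd300ld and Cd300lb ran past the RefSeq start, to 115048409, 114989922 and 114934386. Their windows therefore lay partly inside the counted gene, and match positions and identities depend on the start used. No match was in the window of Cd300a, Marco or Scarb2, so that 4 of the 7 receptors looked at had one. So did 4 of the 5 other CD300 genes: Cd300ld3, Cd300e, and Cd300ld4 and Cd300ld5, which had too few counts to be tested. The windows of Cd300ld4 and Cd300ld5 were the same sequence, and that of Cd300ld3 was identical to each at 94.8% of its bases. All held matches at 185 and 80 bases, so Cd300ld3, Cd300ld4 and Cd300ld5 are near copies and not separate cases. Cd300c had none. Of all 32851 RefSeq windows of this length, 19.74% held the motif on either strand. Aligned over their 250 bases, Cd300ld and Cd300ld3 were identical at 74.0% and Cd300c2 and Cd300ld at 58.4%, while Cd300a and Marco, which lie on different chromosomes, were identical at 62.4%. A match of these letters is a description and not evidence of binding.

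The libraries held between 18462287 and 27464399 counts. Across all tested genes, 519 were called higher and 248 lower in mtD2+ macrophages at a Benjamini-Hochberg adjusted p under 0.05 in edgeR's quasi-likelihood test. With scaling by library totals alone, the calls were 407 higher and 349 lower. The macrophage genes of the sort were well expressed in both groups: Ptprc (CD45) averaged 464 ± 45.7 normalised CPM in mtD2+ and 460 ± 65.7 CPM in mtD2- macrophages (SD, n = 4 each; adjusted p = 0.938). Adgre1 (F4/80) was lower in mtD2+ macrophages, at 466 ± 41.7 CPM, against 685 ± 94.6 CPM in mtD2- macrophages (adjusted p = 0.0336). The Adgre1 call ended without the mouse block (adjusted p = 0.0737) and when mouse 1, 3 or 4 was left out. Markers of fibroblasts and adipocyte precursors were lower too in mtD2+ libraries, in 8 of 12 genes, with a summed level of 620 to 911 CPM, against 1822 to 4617 CPM in mtD2- libraries. Of 24 genes known to respond to tissue digestion, 9 were higher and 0 lower in mtD2+ libraries, where they summed to 29010 to 34280 CPM, against 16060 to 32920 CPM in mtD2- libraries. Fcgr1 (CD64) averaged 118 ± 15.2 CPM in mtD2+ and 160 ± 3.05 CPM in mtD2- macrophages (SD, n = 4 each; log2 fold change -0.44, adjusted p = 0.0554), did not overlap between the groups and passed under 4 of 8 alternatives that kept all mice. Of 12 macrophage identity genes, 1 was called higher in mtD2+ cells (Mertk, log2 fold change 0.51) and 2 lower (Cx3cr1, -1.11, and Aif1, -0.64). None of the tested markers of adipocytes, endothelium, mesothelium, neutrophils, mast cells, dendritic cells or lymphocytes was called. Not all could be tested: 2 of 8 neutrophil, 4 of 7 mast cell, 7 of 9 endothelial and 6 of 8 lymphocyte markers were. Untested Ngp and S100a8 of neutrophils had 333 and 185 counts in the mtD2+ library of mouse 4, against 2 and 1 in its mtD2- library. In mouse 3, S100a8 had 0 counts in the mtD2+ and 67 in the mtD2- library. Ly6g of neutrophils and Ms4a2 of mast cells had 0 counts in every library. Of 8 monocyte markers, 1 was called lower in mtD2+ libraries (Ccr2, log2 fold change -0.74). Adipocyte markers summed to 601 to 1221 CPM in mtD2+ libraries, against 584 to 787 CPM in mtD2- libraries. The mtD2- library of mouse 4 stood apart from the rest on the first principal component, and it had the highest fibroblast sum. In sorted bulk samples, fewer cells that make a transcript and less transcript per cell cannot be told apart.

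Of the 10 receptors, Cd300c2 was called higher and Scarb1 lower in mtD2+ macrophages. The share of all tested genes called higher was 3.72% and the share called lower was 1.78%, so that 1 call in each direction among 10 genes is close to the background. The median log2 fold change of the 10 was -0.11, against -0.0006 over all tested genes. Without mouse 4, whose mtD2- library stood apart, 1 receptor (Cd300c2) was called higher and 0 lower. In the fit of all mice, 8 receptors were not called, of which Cd300lb came nearest. Every mtD2+ library lay above every mtD2- library for 1 receptor, Cd300c2, and below for 2, Scarb1 and Cd300lb, while 6.55% and 6.01% of all tested genes were separated in these directions. Cd300c2 and Colec12 were higher in mtD2+ cells in 4 of 4 mice and Scarb1 and Cd300lb were lower in 4 of 4, as were 16.3% and 16.0% of all tested genes.

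**Figure D1:**
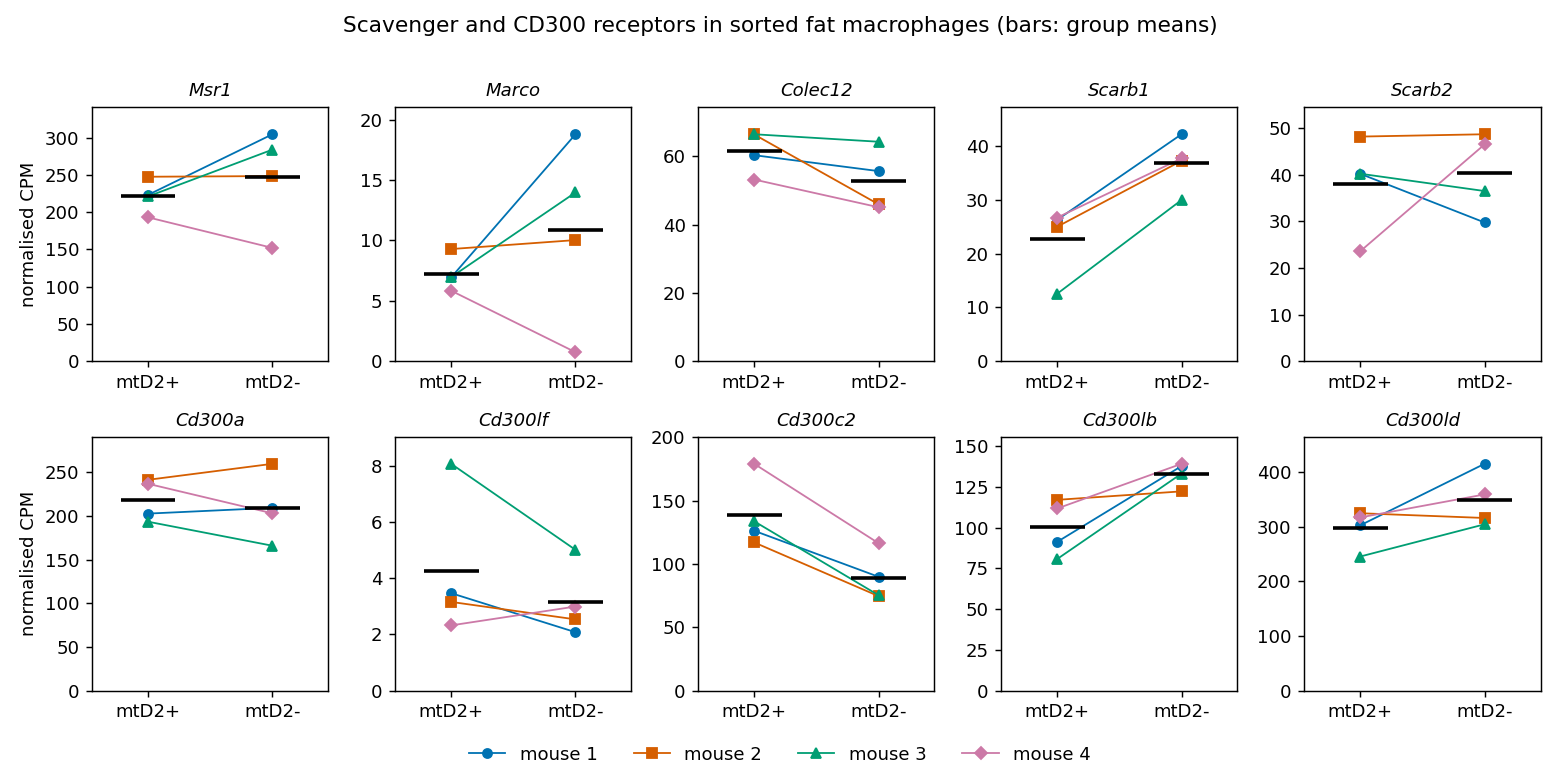
Normalised CPM (vertical axis, from 0) of the 10 receptors in mtD2+ and mtD2- macrophages (horizontal axis), with 1 line per mouse and black bars for the means of 4 libraries. Every line descends from mtD2+ to mtD2- for Cd300c2 and climbs for Scarb1 and Cd300lb; the mtD2- library of mouse 4 is lowest for Marco, at 0.736 CPM.

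Per kilobase of transcript, the CD300 genes spanned the whole range of the receptors' levels. Cd300ld was highest in both groups by the authors' deposited RPKM, at 110 ± 12.1 in mtD2+ and 134 ± 18.3 in mtD2- macrophages (SD, n = 4 each). Cd300lf was lowest in both, at 0.814 ± 0.508 RPKM in mtD2+ and 0.627 ± 0.276 RPKM in mtD2- macrophages. In mtD2+ macrophages the order was Cd300ld, Cd300c2, Msr1, Cd300a, Cd300lb, Colec12, Scarb2, Marco, Scarb1 and Cd300lf. There, the ranges overlapped between Cd300ld and Cd300c2, between Msr1 and Cd300a, between Colec12 and Scarb2, and between Marco and Scarb1, and were apart between the other neighbours. In mtD2- macrophages the order was Cd300ld, Cd300c2, Msr1, Cd300lb, Cd300a, Scarb2, Colec12, Scarb1, Marco and Cd300lf. In that group only the steps from Cd300ld to Cd300c2, from Cd300a to Scarb2 and from Colec12 to Scarb1 separated the ranges.

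The class A receptors showed no called difference. Msr1, the macrophage receptor for acetylated and oxidised low-density lipoprotein (chromosome 8, 39581700 to 39642678), had 223, 247, 221 and 193 CPM in mtD2+ libraries of mice 1 to 4, against 304, 248, 284 and 152 CPM in mtD2- libraries. The groups overlapped, and 1 mouse had the higher value in mtD2+ cells. The log2 fold change was -0.12 ± 0.14 (SE; 95% interval -0.45 to 0.21; adjusted p = 0.672). Colec12, a scavenger receptor with a sugar-binding domain that is also made by endothelial and stromal cells (chromosome 18, 9707648 to 9877995), had 60.3, 66.4, 66.4 and 53.2 CPM in mtD2+ libraries. In mtD2- libraries it had 55.6, 45.9, 64.3 and 45.1 CPM. It was higher in mtD2+ cells in every mouse, but by little, with a log2 fold change of 0.23 ± 0.13 (SE; 95% interval -0.06 to 0.52; adjusted p = 0.317).

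Marco, which binds bacteria and inhaled particles and marks peritoneal and other resident macrophages (chromosome 1, 120474538 to 120505024), was the most uneven of the receptors. It had 6.93, 9.28, 6.95 and 5.83 CPM in mtD2+ libraries of mice 1 to 4, against 18.8, 10.02, 14.0 and 0.736 CPM in mtD2- libraries. The mtD2+ libraries lay close together, and the mtD2- libraries spanned from 16 to 488 counts, with mouse 4 far below the others. The log2 ratio was -1.438, -0.111 and -1.005 in mice 1 to 3 and 2.985 in mouse 4. The fitted log2 fold change had a wide interval, -0.12 ± 0.63 (SE; 95% interval -1.55 to 1.31; adjusted p = 0.936). Without mouse 4 it was -0.85 (adjusted p = 0.194), and without mouse 1 or mouse 3 it turned to 0.43 or 0.26.

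The 7 peritoneal macrophage markers also varied between libraries. Their sum was 264, 391, 249 and 171 CPM in mtD2+ libraries, against 446, 297, 386 and 119 CPM in mtD2- libraries, so that mouse 4 was lowest in both groups. In the mtD2- library of mouse 4, Alox15 was at 20.3 CPM, against 79.9 to 192 CPM in the other mtD2- libraries, and Selp was at 0.092 CPM. Timd4, Prg4, Gata6 and Icam2 were also lowest of their group there. Garnl3 went the other way, at 11.7 CPM, against 5.86 to 11.5 CPM in the other mtD2- libraries. Between the groups the markers were mixed: Timd4 was higher in mtD2+ libraries in every mouse, and Prg4, Icam2 and Garnl3 were lower in every mouse. Of the 7 markers, 0 were called, and Gata6, the transcription factor that defines large peritoneal macrophages, stayed between 0.368 and 4.58 CPM over all libraries. The part of such cells in the Marco values was not tested.

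**Figure D2:**
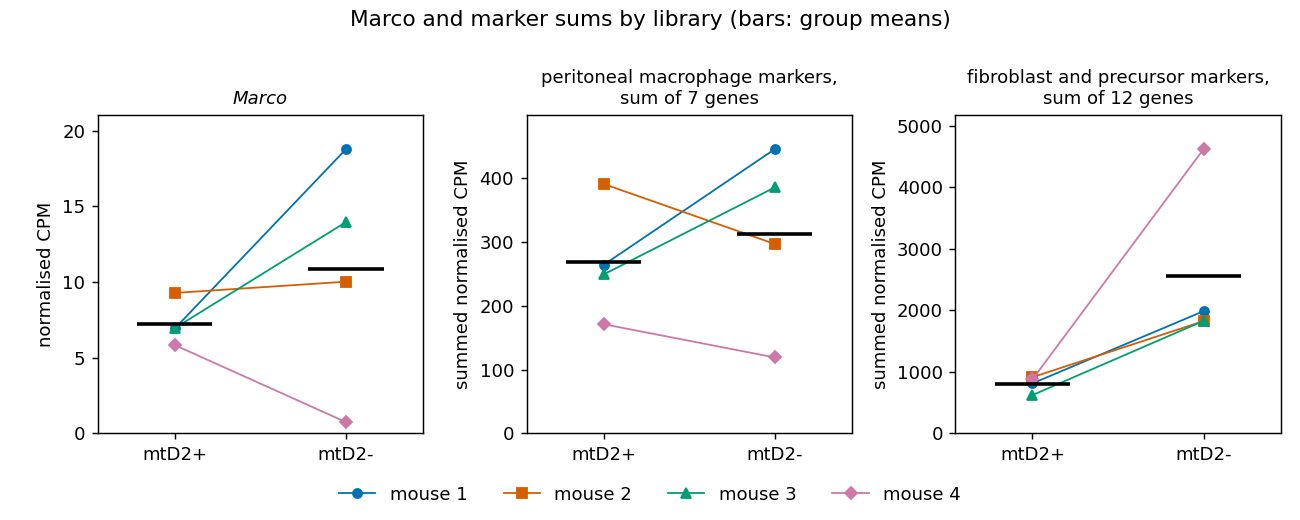
Marco (left, normalised CPM), the sum of 7 peritoneal macrophage markers (middle) and the sum of 12 fibroblast and adipocyte precursor markers (right, both summed normalised CPM) in mtD2+ and mtD2- libraries, with 1 line per mouse and black bars for means. In mouse 4 the mtD2- library is lowest for Marco and for the peritoneal markers, at 119 CPM, and highest for the fibroblast markers, at 4617 CPM.

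Of the class B receptors, Scarb1 fell and Scarb2 did not pass the test. Scarb1 encodes SR-BI, the receptor for high-density lipoprotein that takes up cholesteryl esters and also lets cholesterol leave the cell (chromosome 5, 125277087 to 125341094). It had 26.3, 25.0, 12.5 and 26.7 CPM in mtD2+ libraries of mice 1 to 4, against 42.2, 37.3, 30.0 and 37.7 CPM in mtD2- libraries. Mouse 3 was lowest in both groups, and the groups did not overlap. The level in mtD2+ cells was 0.595 times that in mtD2- cells, a log2 fold change of -0.75 ± 0.17 (SE; 95% interval -1.14 to -0.36; adjusted p = 0.0404 in edgeR's quasi-likelihood test). The log2 ratio of the mice was -0.68, -0.58, -1.26 and -0.50.

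The Scarb1 call was lost when any 1 mouse was left out, with a log2 fold change between -0.83 and -0.58 and an adjusted p between 0.0598 and 0.141, and in the model without the mouse block (-0.70, adjusted p = 0.149). The summed level of fibroblast markers was also lower in mtD2+ cells in 4 of 4 mice, by log2 ratios of -1.292, -1.0, -1.558 and -2.401. Their largest ratio was in mouse 4, where Scarb1 was at -0.50, and the largest Scarb1 ratio, -1.26, was in mouse 3. The part of fibroblast transcripts in the Scarb1 result was not tested.

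Scarb2 encodes LIMP-2, a lysosomal membrane protein that also binds some enteroviruses (chromosome 5, 92443873 to 92505608). It had 40.3, 48.2, 40.3 and 23.6 CPM in mtD2+ libraries, against 29.8, 48.7, 36.5 and 46.5 CPM in mtD2- libraries. It was higher in mtD2+ cells of mice 1 and 3 and lower in those of mice 2 and 4, with a log2 fold change of -0.10 ± 0.22 (SE; 95% interval -0.59 to 0.40; adjusted p = 0.835). Without mouse 4 the fold change turned to 0.18.

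**Figure D3:**
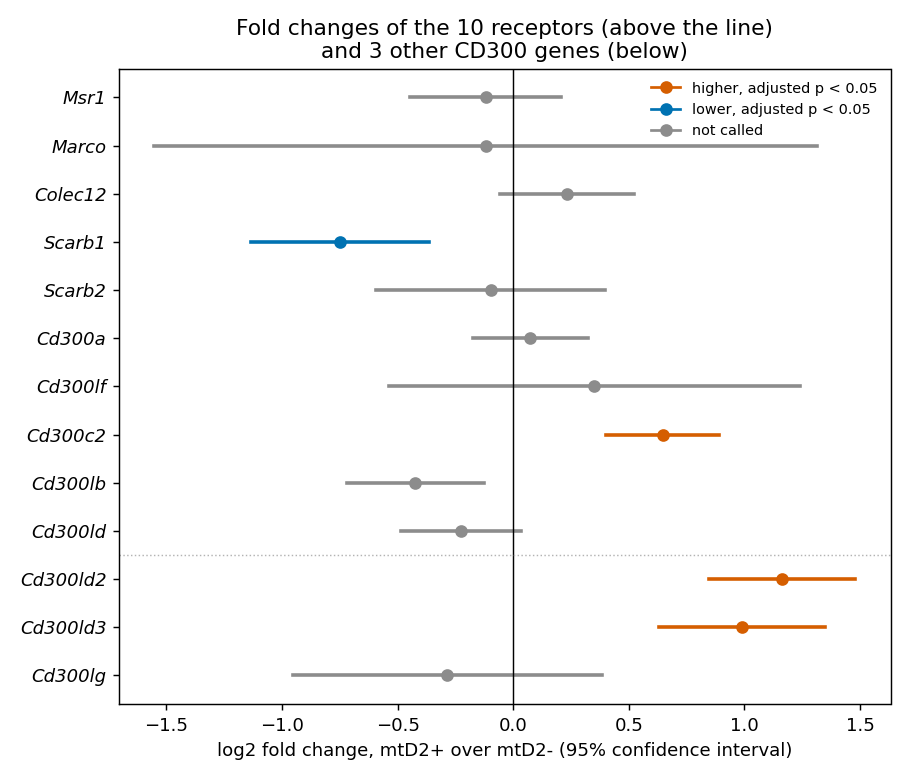
Log2 fold change, mtD2+ over mtD2- (horizontal axis), with its 95% confidence interval for the 10 receptors above the dotted line and 3 other tested CD300 genes below it. Orange marks genes called higher (Cd300c2, Cd300ld2 and Cd300ld3), blue the gene called lower (Scarb1, -0.75) and grey genes that were not called; Marco has the widest interval.

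The inhibitory CD300 receptors were not called. Cd300a, which recruits phosphatases and binds phosphatidylserine and phosphatidylethanolamine on dying cells, had 203, 241, 193 and 237 CPM in mtD2+ libraries, against 209, 260, 166 and 203 CPM in mtD2- libraries. It was higher in mtD2+ cells in 2 mice and lower in 2, with a log2 fold change of 0.07 ± 0.11 (SE; 95% interval -0.18 to 0.32; adjusted p = 0.743). Cd300lf, which binds phosphatidylserine and ceramide and is the entry receptor of mouse norovirus, was scarce, with 41 to 182 counts in mtD2+ libraries and 54 to 119 counts in mtD2- libraries. It had 3.46, 3.15, 8.06 and 2.32 CPM in mtD2+ libraries, against 2.08, 2.53, 5.00 and 2.99 CPM in mtD2- libraries. Mouse 3 was highest in both groups, and the log2 fold change was 0.35 ± 0.39 (SE; 95% interval -0.54 to 1.24; adjusted p = 0.644). Cd300lf lies inside Rab37, a gene on the other strand with which it shares 0 exonic bases, and Rab37 had at most 37 counts in a library.

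Of the activating receptors, Cd300c2 rose in mtD2+ macrophages and Cd300lb and Cd300ld did not pass the test. Cd300c2, which signals through DAP12 and FcRγ (chromosome 11, 114996721 to 115001880), had 126, 117, 134 and 179 CPM in mtD2+ libraries of mice 1 to 4, against 90.0, 74.7, 75.4 and 117 CPM in mtD2- libraries. Mouse 4 was highest in both groups, and the groups did not overlap. It was 1.56-fold higher in mtD2+ cells, a log2 fold change of 0.65 ± 0.11 (SE; 95% interval 0.40 to 0.89; adjusted p = 0.0125). The log2 ratio was similar from mouse to mouse, at 0.49, 0.65, 0.83 and 0.62. The call held without mouse 4 (adjusted p = 0.0263), missed the threshold without mouse 1, 2 or 3 (adjusted p = 0.0540 to 0.0778), and was lost without the mouse block (adjusted p = 0.102), at log2 fold changes of 0.59 to 0.70. The summed level of the genes that respond to digestion was higher in mtD2+ cells in 4 of 4 mice as well. Its log2 ratios were 0.60, 0.87, 0.67 and 0.06. Single genes went both ways in mouse 4, where Ier2 was at -1.228, Junb at -1.135 and Dnaja1 at 0.9. The part of these genes in the Cd300c2 result was not tested.

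Cd300lb, a receptor that pairs with DAP12 (chromosome 11, 114922781 to 114934386), had 91.2, 117, 80.7 and 112 CPM in mtD2+ libraries, against 138, 122, 133 and 139 CPM in mtD2- libraries. The groups did not overlap, yet in mouse 2 the values were nearly equal. The log2 fold change was -0.42 ± 0.13 (SE; 95% interval -0.72 to -0.13), which did not pass in edgeR's quasi-likelihood test (adjusted p = 0.0997) and did in the Wald test of DESeq2 (adjusted p = 0.0373). Cd300ld, which pairs with FcRγ (chromosome 11, 114982274 to 114989922), had 303, 325, 246 and 317 CPM in mtD2+ libraries, against 415, 316, 305 and 359 CPM in mtD2- libraries. It was lower in mtD2+ cells in 3 of 4 mice, with a log2 fold change of -0.23 ± 0.11 (SE; 95% interval -0.49 to 0.03; adjusted p = 0.278).

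Summed over the 5 CD300 receptors, the level was 726, 804, 662 and 847 CPM in mtD2+ libraries, against 854, 775, 684 and 821 CPM in mtD2- libraries. The log2 ratio of the sums was -0.05 ± 0.13 (SD, n = 4 mice). Count ratios within a library describe the make-up of that sum and need no scaling between libraries. The ratio of Cd300c2 to Cd300ld counts, chosen after the values were seen and given without a test, was 0.417, 0.360, 0.545 and 0.565 in mtD2+ libraries, against 0.217, 0.236, 0.247 and 0.324 in mtD2- libraries. The ratio of Cd300c2 to Cd300lb counts was 1.385, 1.0, 1.658 and 1.604 in mtD2+ libraries, against 0.654, 0.611, 0.567 and 0.837 in mtD2- libraries. The ratio of Cd300c2 to Cd300a counts was 0.623, 0.485, 0.692 and 0.757 in mtD2+ libraries, against 0.430, 0.288, 0.454 and 0.574 in mtD2- libraries. In every mouse these 3 ratios were higher in mtD2+ cells. The groups overlapped for the ratio to Cd300a and not for the ratios to Cd300ld and Cd300lb. All 3 ratios have Cd300c2, already called higher, on top, and Cd300lb was already lower in every mouse. The ratios therefore restate the values of the single genes, were given without a test and are not further support.

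The genes next to Cd300c2 in the cluster were looked at in the same way. Of 8 other CD300 genes listed, 7 had an entry and 4 were tested; 2 were called higher and 0 lower. Cd300ld2 (chromosome 11, 115010335 to 115016193) had 56.03, 49.1, 65.3 and 58.2 CPM in mtD2+ libraries, against 26.8, 18.9, 26.2 and 31.3 CPM in mtD2- libraries. That was 2.24-fold higher, a log2 fold change of 1.16 ± 0.14 (SE; 95% interval 0.84 to 1.48; adjusted p = 0.0040), and it held with every mouse left out in turn (adjusted p = 0.0059 to 0.0317). Cd300ld3 (chromosome 11, 115042131 to 115048409) had 38.7, 32.4, 40.6 and 31.5 CPM in mtD2+ libraries, against 22.6, 18.5, 16.8 and 14.6 CPM in mtD2- libraries. Its log2 fold change was 0.99 ± 0.16 (SE; 95% interval 0.63 to 1.35; adjusted p = 0.0111), and without mouse 3 it missed the threshold (0.90, adjusted p = 0.0630).

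Counts of Cd300ld2 and Cd300ld3 are uncertain, because these genes share sequence with near-identical copies. In the GENCODE transcripts, 31.0% of the 50-base stretches of Cd300ld2 and 82.1% of those of Cd300ld3 also occur in another gene, as do 93.8% for Cd300ld4 and 100% for Cd300ld5. Cd300ld4 and Cd300ld5 had at most 5 and 4 counts in a library. The treatment of reads that match several copies is not stated in the notes. Cd300c2 shared 7.16% of its stretches, all with Cd300a, and Cd300ld shared 3.89%, mostly with Cd300lf. Msr1, Marco, Scarb2 and Cd300lb shared 0, and none of the 10 receptors shared exonic bases with an overlapping gene.

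Along the cluster, the mean log2 ratio over mice was 0.07 ± 0.17 at Cd300a, -0.42 ± 0.29 at Cd300lb and -0.23 ± 0.21 at Cd300ld. It was 0.65 ± 0.14 at Cd300c2, 1.16 ± 0.22 at Cd300ld2 and 0.99 ± 0.24 at Cd300ld3 (SD, n = 4 mice each). Cd300c2 and Cd300ld2 are neighbours, at 109 and 123 kb from the first base of Cd300a, and Cd300ld3 lies at 155 kb, beyond Cd300ld4 and Cd300ld5, which had too few counts to be tested. Cd300ld lies at 96.1 kb. Cd300e, an activating receptor of monocytes that lies between Cd300ld3 and Cd300lf, had 5 to 20 counts in mtD2+ libraries and 0 to 94 counts in mtD2- libraries, and Cd300c had at most 32 counts. Cd300lg, which lies apart on chromosome 11 and is known from endothelial cells, averaged 19.1 ± 3.79 CPM in mtD2+ and 25.1 ± 12.3 CPM in mtD2- libraries (SD, n = 4 each; adjusted p = 0.612).

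**Figure D4:**
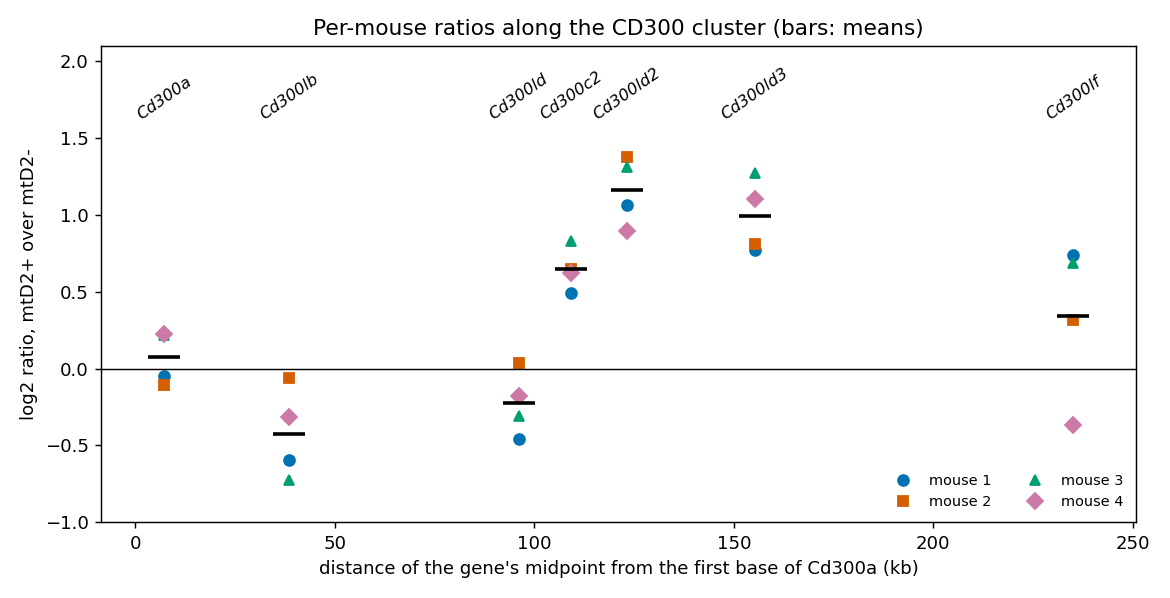
Log2 ratio of normalised CPM, mtD2+ over mtD2-, in each of 4 mice (points) and their mean (bars) for 7 genes of the CD300 cluster, against the distance of each gene's midpoint from the first base of Cd300a in kb. All 4 points lie above 0 for Cd300c2, Cd300ld2 and Cd300ld3; all lie below 0 for Cd300lb.

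Partners of the receptors were looked at next. Of 11 adaptor and signalling genes, all tested, 0 were called higher and 1 lower, with a median log2 fold change of 0.08. The lower gene was Fcer1g, the FcRγ chain, at 956, 1154, 843 and 1197 CPM in mtD2+ libraries, against 1303, 1430, 1265 and 1611 CPM in mtD2- libraries (log2 fold change -0.44 ± 0.10, SE; adjusted p = 0.0404). It no longer passed when any 1 mouse was left out (adjusted p = 0.0502 to 0.208), without the mouse block (adjusted p = 0.181) and with upper-quartile scaling (adjusted p = 0.0505). On the log2 fold scale, Tyrobp, which encodes DAP12, was at -0.22 ± 0.10 (SE; adjusted p = 0.235). The kinase gene Lyn was at -0.22 ± 0.10 (SE; adjusted p = 0.228) and Ptpn6, the phosphatase SHP-1 that inhibitory tails recruit, at -0.23 ± 0.11 (SE; adjusted p = 0.274).

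Among 18 other scavenger receptors, 16 were tested, 1 was called higher and 1 lower, with a median log2 fold change of -0.19. Stab1, the stabilin that clears modified lipoproteins and acidic proteins, averaged 3329 ± 436 CPM in mtD2+ and 2306 ± 368 CPM in mtD2- macrophages (SD, n = 4 each; log2 fold change 0.54 ± 0.11, SE; adjusted p = 0.0258). Lrp1, a receptor for lipoprotein remnants and many other ligands, averaged 252 ± 27.9 CPM in mtD2+ and 354 ± 47.1 CPM in mtD2- macrophages (SD, n = 4 each; log2 fold change -0.49 ± 0.11, SE; adjusted p = 0.0336). Both calls were lost without the mouse block (adjusted p = 0.128 for Stab1 and 0.110 for Lrp1). The Stab1 call was also lost without mouse 1, 2 or 3, and the Lrp1 call when any 1 mouse was left out. Scara5, a ferritin receptor made by fibroblasts, averaged 1.42 ± 1.42 CPM in mtD2+ and 8.73 ± 5.86 CPM in mtD2- macrophages (SD, n = 4 each; adjusted p = 0.0616). On the log2 fold scale, Clec7a, the β-glucan receptor, was at -0.41 ± 0.11 (SE; adjusted p = 0.0657). Cd36, the class B receptor for fatty acids and oxidised lipoprotein, was at -0.23 ± 0.11 (SE; adjusted p = 0.250).

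Of 13 genes that handle the cholesterol such receptors bring in, all tested, 1 was called higher and 0 lower, with a median log2 fold change of -0.09. Soat1, which esterifies cholesterol for storage, had 158, 127, 153 and 162 CPM in mtD2+ libraries, against 123, 78.8, 102 and 128 CPM in mtD2- libraries. It was higher in mtD2+ cells in every mouse (log2 fold change 0.50 ± 0.11, SE; adjusted p = 0.0377). The call ended without the mouse block (adjusted p = 0.165) or without mouse 1, 2 or 3. The cholesterol exporter gene Abca1 was at 0.38 ± 0.10 (SE; adjusted p = 0.0700). Npc1, which lets cholesterol out of the lysosome, was at 0.29 ± 0.11 (SE; adjusted p = 0.156), and the lipoprotein lipase gene Lpl at -0.35 ± 0.15 (SE; adjusted p = 0.225).

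The genes whose profiles over the 8 libraries were most like the called receptors were found by root mean square distance of centred log2 CPM, among 9361 genes. Nearest to Cd300c2 were Sgpl1, a sphingosine phosphate lyase, and Pbdc1, at distances of 0.08 and 0.09. Nearest to Scarb1 were Haus7, a spindle protein gene, and the tetraspanin gene Cd151, both at 0.16. Of these 4 genes, Sgpl1 and Pbdc1 were called higher (log2 fold change 0.56 and 0.53, adjusted p = 0.0196 and 0.0309) and Cd151 lower (-0.73, adjusted p = 0.0449), whereas Haus7 was not called (-0.48, adjusted p = 0.120). The 4 genes were picked because their profiles in the same libraries lay near those of called receptors. Their directions, and largely their calls, follow from that choice and are not separate results.

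**Figure D5:**
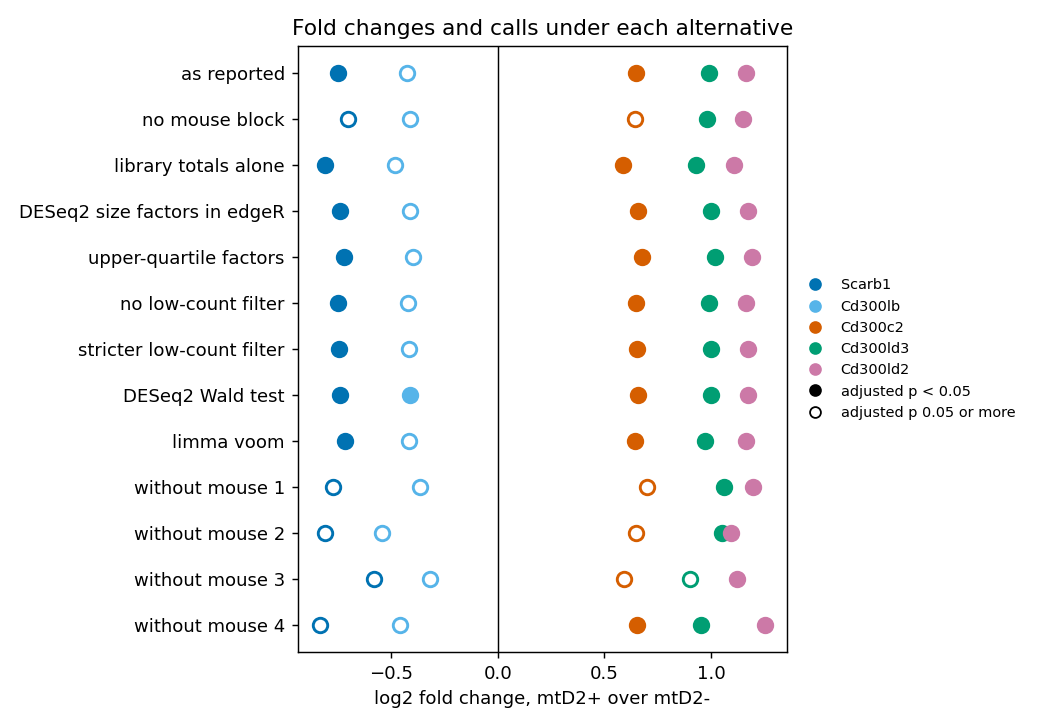
Log2 fold change, mtD2+ over mtD2- (horizontal axis), of Scarb1, Cd300lb, Cd300c2, Cd300ld3 and Cd300ld2 under each test setting (vertical axis); filled points have an adjusted p under 0.05 and open points do not. No point crosses 0, and the calls of Scarb1 and Cd300c2 are lost without the mouse block. The Scarb1 call is also lost when any 1 mouse is left out, and the Cd300c2 call without mouse 1, 2 or 3.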

How the data were processed

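RNA from 8 sorted macrophage libraries was amplified with the SMARTer Ultra-Low kit, per the labels' protocols. Per the submitters' processing notes, STAR 2.0.4b, bcl2fastq, Subread and featureCounts 1.45 were used with GRCm38; strand and multi-mapping settings are not stated there. The authors deposited a count per gene, a CPM (count scaled to the library total) and an RPKM (that CPM per kilobase); both relations held on rechecking. Symbols came from GENCODE M21 (40340 of 41388 genes). The deposited counts went into edgeR 4.0.16 under R 4.3.3 (quasi-likelihood F test, TMM, the mouse as a block), after a filter with minimum count 10 and total 15, with Benjamini-Hochberg adjustment over 13933 genes; the test was tried on simulated counts. Normalised CPM uses TMM-scaled library sizes. Mice pair the libraries by label; same-mouse deviations correlated at 0.0385, 0.0704, 0.145 and 0.251, against at most 0.0582, 0.0246, 0.0139 and -0.01 with another mouse, so that the pairing does not show in mouse 1. The receptors and gene lists were chosen with earlier results of these data known. Named genes were all receptors, up to 4 per list by unadjusted p, markers, and 2 nearest profiles; 1 listed gene is not reported here. DESeq2 1.42.0 and limma 3.58.1 served as alternatives. Intervals and p-values of the edgeR fit use a variance for each gene that borrows from the other genes. They do not measure the spread between the 4 mice alone.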

Additional observations from a re-analysis of the deposited data

Results flagged for a closer look

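The Scarb1 level of the mtD2+ library of mouse 3 lay far from its group, at 12.5 CPM, against 25.0 to 26.7 CPM in the other mtD2+ libraries. The gap to the nearest library was 0.88 of the group's range, above the 95% critical value of Dixon's test for 4 samples. Among 28 groups of 4 libraries examined (the 10 receptors and 4 other CD300 genes in mtD2+ and mtD2- cells), this was the 1 library that passed. Chance alone gives about 1 in 20 for each group, so 1 pass among 28 groups is not more than chance would give. The mtD2- library of mouse 3 was also the lowest of its group, at 30.0 CPM. Without mouse 3 the Scarb1 log2 fold change was -0.58, with an adjusted p of 0.141 in edgeR's quasi-likelihood test.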

How the results depend on the processing

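Of 80 results for the 10 receptors under the 8 alternatives that kept all mice, 77 kept their direction and side of the threshold, 0 turned round, 2 lost the call (Scarb1 at -0.70 and Cd300c2 at 0.64, both without the replicate block) and 1 gained it (Cd300lb at -0.41 with DESeq2). Without the block, 218 genes were called over all tested, and 0 receptors higher and 0 lower; its paired counterpart is the reported fit. DESeq2's Wald test called 1816 genes over all tested and 2 receptors lower. Leaving out each mouse in turn gave 166 to 555 called genes, 0 to 1 receptors called higher and 0 called lower; of 40 receptor results, 30 held, 7 lost the call and 3 turned round: Scarb2 ranged from -0.277 to 0.185 (positive without mouse 4) and Marco from -0.852 to 0.425 (positive without mouse 1 or 3). Ptprc turned to -0.0381 with library totals alone and ranged from -0.0633 to 0.0629 with a mouse left out. The summed CD300 level moved by less than 1 SD under all alternatives that rescale or leave out libraries. Cd300lf had 41 to 182 counts in a library, and Cd300c, Cd300ld4 and Cd300ld5 had too few to be tested.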
